A study of Homo sapiens with 22 samples.

Results

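Labelled RNA that was still present 6 and 10 h into the chase was compared between HEK293T cells expressing a hairpin against ZNF598 (shZNF598) and cells expressing a control hairpin (shControl). These 8 libraries, 2 per hairpin at each time, were chosen by their chase time from the 22 libraries of the series. HEK293T is a human embryonic kidney cell line. All cells were grown in DMEM, labelled with 150 µM bromouridine (BrU, a uridine analogue built into new transcripts) for 24 h, and washed before the chase in medium without BrU, so the controls went through the same labelling. The cells expressing each hairpin came from earlier work, and how the hairpins were driven and whether a line was 1 clone are not given in the sources used here. The labels number the replicates but do not say that they came from separate cultures, so the p-values measure the spread between these libraries, which may be technical.

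In BRIC-Seq, labelled RNA is recovered with an anti-BrdU antibody and sequenced, so a transcript that decays slowly makes up a growing share of the labelled RNA as the chase goes on. ZNF598 is an E3 ubiquitin ligase that recognizes collided ribosomes and starts their rescue. The mRNA on which ribosomes have collided can be cleaved and degraded by no-go decay. Late in the chase, a difference between hairpins adds up what was different at the end of labelling and what was lost at a different rate since then.

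The late libraries held 52352359 to 96963584 counts over all transcript rows, where isoforms share reads, and 14345330 to 27706767 counts over the 1 row kept per gene. The 15093 genes tested had a mean of at least 1 CPM (counts scaled to an equal library size) over the 0 to 10 h libraries, and 13480 of them had a GENCODE name. Replicates correlated across genes with a Pearson r of 0.993 and 0.9931 in shControl at 6 and 10 h, and of 0.9905 and 0.9884 in shZNF598. The shZNF598 replicates thus differed more from each other than the shControl replicates. Libraries of different hairpins at the same time correlated with 0.9822 to 0.9888. The 10 most abundant rows took 12.6% and 12.8% of the counts in shControl at 6 h against 14.9% and 16.6% in shZNF598, and 20.6% and 20.4% against 21.7% and 24.5% at 10 h. Of the HEK293-expressed markers 7 passed the filter, with NEFM lower and the other 6 not called, and of 8 markers of other cell types 1 passed it. Fewer cells and less RNA per cell cannot be told apart in these bulk samples.

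The targeted gene was examined first. The row kept for ZNF598 was ENST00000562103.2, a transcript of 3366 nt whose coding sequence runs from base 75 to base 2786. It lies on the minus strand of chromosome 16 at 1997655 to 2009821 in GRCh38. ZNF598 had 4.58 and 4.67 CPM in the shControl libraries at 6 h and 0.587 and 0.811 CPM in shZNF598. At 10 h it had 4.52 and 3.30 CPM in shControl and 0.727 and 0.860 CPM in shZNF598. The groups did not overlap at either time. The late change was −2.53 on the log2 scale (SE 0.14, adjusted p = 3.12e-17), which is a 5.76-fold lower level. An identifier without a GENCODE match, ENST00000563630.6, had almost the same counts as the ZNF598 row and the same log2 change of −2.53, so the pair was read as 1 measurement. ENSG00000260107 overlaps ZNF598 on the opposite strand, and whether reads were counted by strand is not given.

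In all, 1751 of the 15093 genes differed late in the chase (11.6%), 708 higher (4.69%) and 1043 lower (6.91%) in shZNF598. The lower genes reached further. Of these, 332 were lower by at least 0.5 on the log2 scale and 50 by at least 1, with a median of −0.41 and a lowest value of −3.19. Among the higher genes, 171 passed 0.5 and 1 passed 1, with a median of 0.40. All genes together had a median of 0.02. Scaling by library totals alone in place of TMM gave 863 higher and 822 lower. Without shControl 10 h replicate 2, the count of called genes was 980, and without shControl 6 h replicate 2 it was 1060. At both 6 and 10 h, the shZNF598 libraries lay outside the range of the shControl libraries on the called side for 566 of the 708 higher genes. The same held for 972 of the 1043 lower genes. Over all 15093 genes, 3322 were separated in the same direction at both times, and the called genes were chosen from these same libraries. The plot of change against abundance shows that the lower genes with large changes spanned most of the abundance range, while the most abundant rows that were called lay just above 0.

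**Figure D1:**
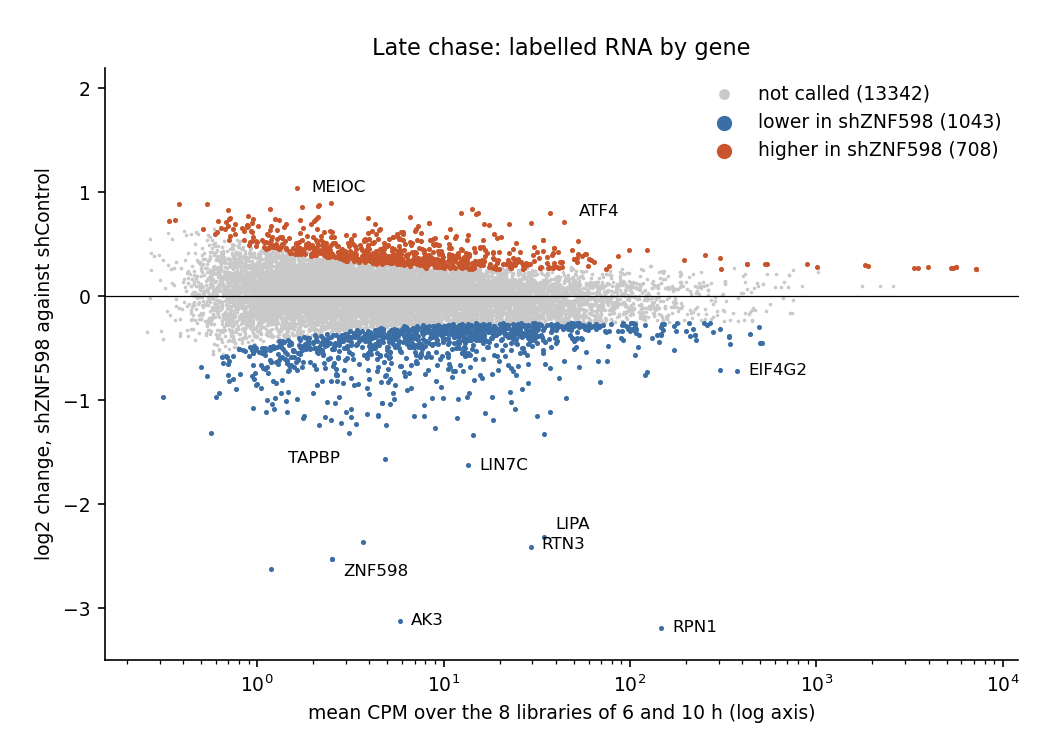
Log2 change of each of the 15093 genes late in the chase (y axis) against its mean CPM over the 8 libraries (x axis, log scale), with the 708 genes called higher in orange and the 1043 called lower in blue. RPN1 and AK3 lie lowest, at −3.19 and −3.12, and only MEIOC lies above 1 among the called genes.

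RPN1 (chromosome 3, 128619969 to 128650818, minus strand, GRCh38) had the largest change. It encodes ribophorin I, a subunit of the oligosaccharyltransferase that attaches N-glycans to proteins in the endoplasmic reticulum. RPN1 had 202 and 236 CPM in shControl at 6 h and 33.4 and 32.9 CPM in shZNF598, and 299 and 328 CPM against 24.2 and 25.04 CPM at 10 h. Its level thus went up between the times in the control cells and down in the knockdown cells. The late change was −3.19 (SE 0.12, adjusted p = 1.78e-22), a 9.14-fold lower level.

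AK3 (chromosome 9, 4709556 to 4741202, minus strand), a mitochondrial adenylate kinase that uses GTP, had 11.3 and 9.54 CPM in shControl against 1.46 and 1.07 CPM in shZNF598 at 6 h. At 10 h it had 8.90 and 12.1 CPM against 1.23 and 1.04 CPM. The change was −3.12 (SE 0.13, adjusted p = 5.12e-22), and the highest shZNF598 library lay far below the lowest shControl library. LIPA (chromosome 10, 89213572 to 89251775, minus strand), the lysosomal acid lipase, had 42.4 and 46.5 CPM against 13.1 and 11.9 CPM at 6 h, and 66.2 and 76.2 CPM against 11.1 and 9.10 CPM at 10 h. The LIPA change was −2.31 (SE 0.13, adjusted p = 9.52e-18).

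RTN3 (chromosome 11, 63681500 to 63759882, plus strand), a reticulon that shapes tubules of the endoplasmic reticulum, had 43.3 and 43.1 CPM in shControl against 11.7 and 9.72 CPM in shZNF598 at 6 h, and 55.0 and 56.0 CPM against 8.07 and 7.52 CPM at 10 h. The change was −2.41 (SE 0.12, adjusted p = 1.4e-19). Of the 10 largest decreases, 2 more came from chromosome 4, where the RTN3 pseudogene RTN3P1 (log2 change −2.63) and the unclassified gene ENSG00000278943 (−2.37) lie 655 bases apart on the same strand. Of the 25-base stretches of these rows, 46.7% and 53.4% also occur in the RTN3 transcript, so their values may hold reads of RTN3.

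LIN7C, a scaffold protein of cell junctions, had 28.9 and 27.03 CPM against 8.72 and 7.10 CPM at 6 h, and 12.3 and 14.3 CPM against 5.23 and 4.86 CPM at 10 h, a change of −1.63 (SE 0.10, adjusted p = 1.1e-15). TAPBP, the tapasin of MHC class I peptide loading, had 6.47 and 6.72 CPM against 2.10 and 2.86 CPM at 6 h, and 8.67 and 7.36 CPM against 2.07 and 2.78 CPM at 10 h, a change of −1.56 (SE 0.12, adjusted p = 4.48e-13). Each of these rows was separated between the hairpins at both times, which the choice of genes named by size required. Below these, the decreases went on without a gap. The zinc transporter SLC39A6 (−1.12), the mitochondrial ribosomal protein gene MRPS28 (−1.23) and the respiratory complex I subunit gene NDUFB4 (−1.05) were lower as well.

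Among the most abundant genes, EIF4G2, a relative of eIF4G in translation initiation, had 433 and 433 CPM in shControl against 325 and 265 CPM in shZNF598 at 6 h, and 472 and 520 CPM against 300 and 239 CPM at 10 h (log2 change −0.72, SE 0.09, adjusted p = 4.75e-07). The actin bundler gene PLS3 (−0.45) and CTNNB1, which encodes β-catenin (−0.36), fell less, with adjusted p-values of 0.000295 and 0.00442. The heat shock cognate gene HSPA8 had 407 and 466 CPM against 325 and 320 CPM at 6 h, and 341 and 377 CPM against 250 and 262 CPM at 10 h (−0.46, adjusted p = 0.000195).

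A short motif was more frequent in the coding rows called lower, of which 9.65% held it, than in all coding rows, of which 2.61% did. It was found after the values had been seen, so it is described without a test. Over the 16384 heptamers, the median log2 change of the coding rows that hold each was computed from the GENCODE 44 transcripts of 10219 coding rows, ZNF598 left out. The median ran from −0.141 to 0.097. The lowest was that of GTCGTTA. The next lowest, CGTCGTT at −0.084, overlaps it by 6 bases. GTCGTTA occurs exactly 1 time in the ZNF598 transcript, from base 1968 to base 1974 in the coding sequence. The windows of 23 bases around the site are shown for those 6 genes, ZNF598 included, that hold it among the largest decreases, since the positions and neighbouring bases can then be compared. Capitals mark the heptamer, and the strand is that of the transcript.

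ZNF598, coding sequence, chr16:1999641-1999663, minus strand: ttgccgtcGTCGTTAatggacac
AK3, 3′UTR, chr9:4712389-4712411, minus strand: tttattttGTCGTTAagcatact
AK3, 3′UTR, chr9:4711594-4711616, minus strand: tcttacaaGTCGTTAttgccttt
RTN3, 3′UTR, chr11:63758249-63758271, plus strand: gttataacGTCGTTActtgtact
LIPA, 3′UTR, chr10:89213966-89213988, minus strand: ccgctactGTCGTTAttgatcac
LIN7C, 3′UTR, chr11:27495589-27495611, minus strand: gaaatattGTCGTTAataattat
TAPBP, 3′UTR, chr6:33299933-33299955, minus strand: tgtgagtcGTCGTTAaatgcctg

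AK3 holds the heptamer 2 times. The sites shown outside ZNF598 all lie in 3′UTRs. RPN1, RTN3P1 and ENSG00000278943 do not hold the heptamer in the rows used here.

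Of 10219 coding rows, 267 held GTCGTTA (2.61%). Of these, 78 were called lower (29.2%) and 6 higher (2.25%), beside 730 lower (7.33%) and 514 higher (5.17%) of the 9952 rows without it. The median log2 change was −0.141 with the heptamer and 0.022 without it. With the site in the 3′UTR alone, 45 of 118 rows were lower and the median was −0.198. With the site in the coding sequence alone, 29 of 125 were lower and the median was −0.105. With the site in the 5′UTR alone, 2 of 21 were lower and the median was 0.024. The 8 rows with 2 or more copies all had a negative change, with a median of −0.357.

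Ranked by the size of the decrease, 9 of the 20 lowest coding rows held the heptamer, 19 of the 50 lowest and 30 of the 100 lowest, against 3 of the 100 highest. After those shown above, the next carriers were TGFBR3 (−1.31), a co-receptor for TGF-β, LRRC47 (−1.27) and GALNT10 (−1.19), which adds the first sugar of mucin-type O-glycans. The reverse complement TAACGAC was held by 250 rows, of which 11 were lower and 22 higher (median 0.070). Rows with GTCGTTA were longer (median 5112 nt against 3607 nt) and had a median of 6.99 CPM against 5.19 CPM, and a long row is more likely to hold any heptamer.

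Along the ZNF598 transcript, 3 overlapping heptamers stood apart from the other positions. TCGTCGT from base 1966 had a median of −0.051 over 357 other genes, CGTCGTT from base 1967 had −0.084 over 220, and GTCGTTA from base 1968 had −0.141 over 267. Heptamers of ZNF598 away from this site had medians between −0.027 and 0.068. Of the rows with TCGTCGT and without GTCGTTA, 56 of 329 were lower and 12 higher. As background, a small RNA loaded into Argonaute, the product of a short hairpin included, pairs with transcripts mainly through its seed, bases 2 to 8 from its 5′ end. The hairpin sequences were not used here, and whether GTCGTTA pairs with the seed of either hairpin was not tested.

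**Figure D2:**
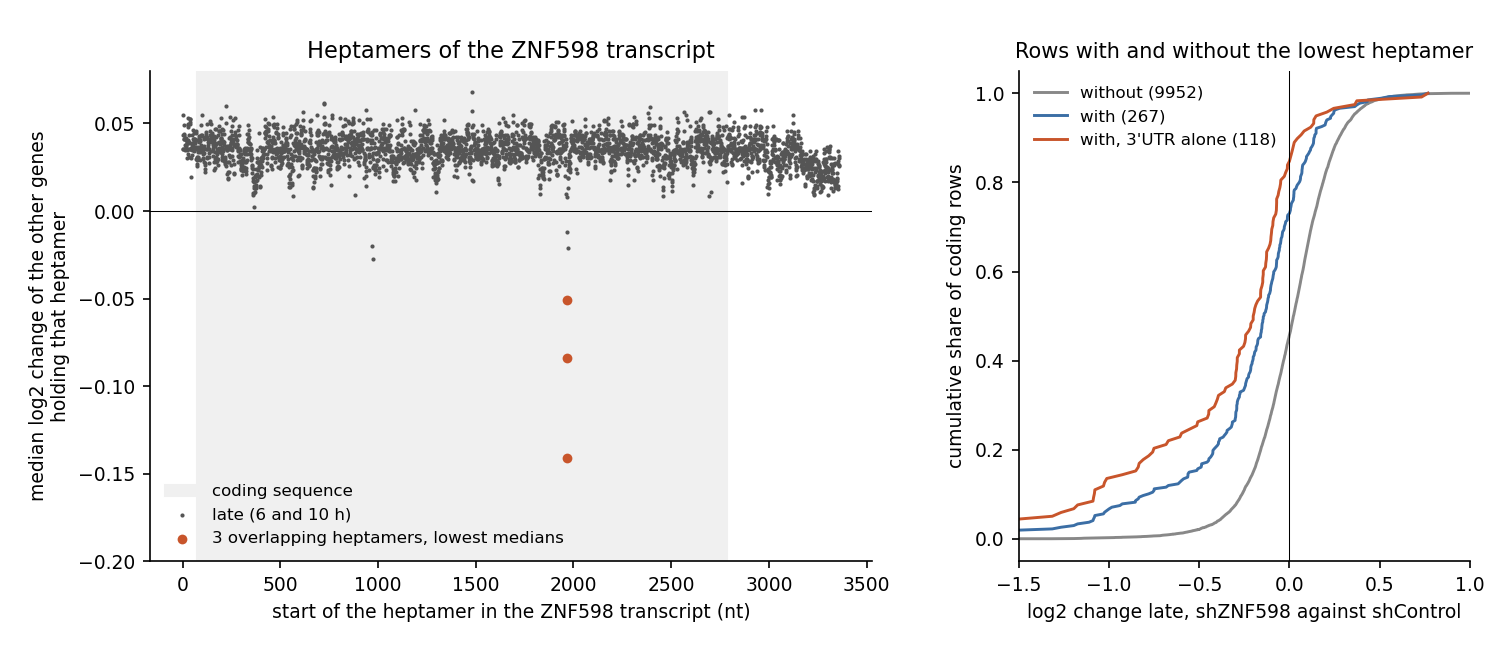
Left, each point is 1 heptamer of the ZNF598 transcript at its start position (x axis, nt), and the y axis gives the median late log2 change of the other coding rows holding it, with the 3 lowest positions in orange and the coding sequence shaded. Right, cumulative share of coding rows (y axis) by late log2 change (x axis) for 9952 rows without GTCGTTA, 267 with it and 118 with it in the 3′UTR alone, whose curve lies furthest to the left.

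The same rows were already lower earlier in the chase. In the libraries of 2 and 4 h, which the choice of the heptamer did not use, carriers had a median of −0.104 against 0.015 for rows without it. Of the 267 carriers, 77 were called lower there (28.8%) and 11 higher. Of the 9952 rows without it, 913 were called lower there (9.17%) and 812 higher. At 0 h, the medians were −0.052 and 0.015. The value at 6 h was −0.166 and that at 10 h was −0.116. Without GTCGTTA or TCGTCGT, 674 of 9623 coding rows were still called lower late (7.004%) and 502 higher, so most lower calls lay in rows that hold neither.

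For RPN1, AK3, RTN3 and LIPA, the difference between the hairpins widened through the chase to 10 h, as the plot of the 22 libraries shows. The ratio of mean CPM for RPN1, shControl over shZNF598, was 2.22 at 0 h, 2.86 at 2 h, 4.39 at 4 h, 6.57 at 6 h and 12.9 at 10 h. For LIPA it went from 1.47 at 0 h to 3.55 at 6 h and 7.13 at 10 h, and for RTN3 from 1.79 to 4.01 and 7.22. AK3 had reached 6.62 by 4 h and had 8.21 at 6 h and 9.38 at 10 h. LIN7C did not widen to 10 h, with ratios of 1.415 at 0 h, 3.52 at 6 h and 2.68 at 10 h. At 24 h, with 1 library per hairpin, the ratios were 3.18 for RPN1, 2.28 for AK3, 2.04 for RTN3 and 4.21 for LIPA. These were all below those at 10 h. ZNF598 itself went the other way after 4 h, with ratios of 8.50 at 0 h, 14.1 at 4 h, 6.60 at 6 h, 4.99 at 10 h and 2.04 at 24 h.

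**Figure D3:**
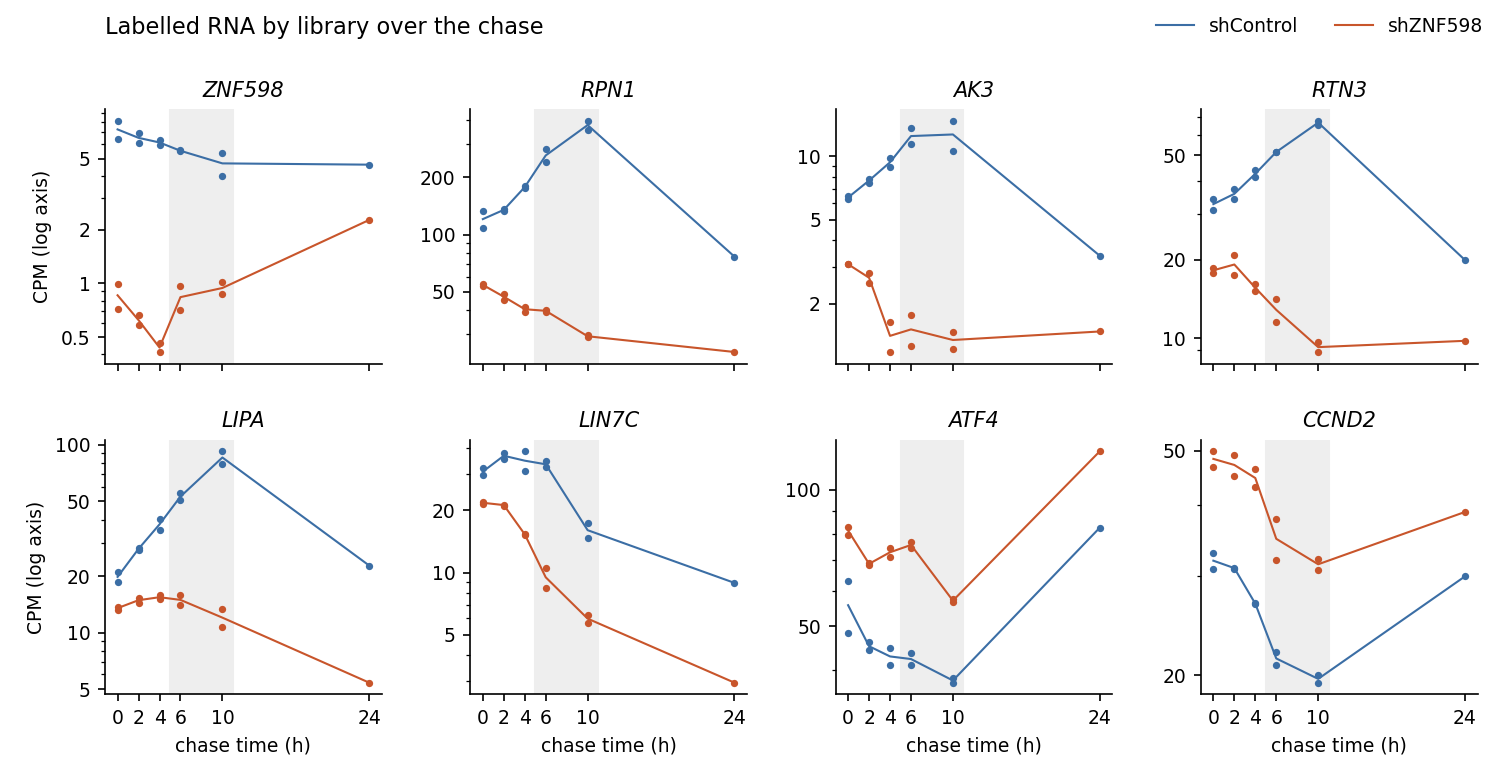
CPM (y axis, log scale, all 22 libraries scaled together) by chase time (x axis, h) for 8 genes, with a point per library, a line through the means, shControl in blue, shZNF598 in orange and 6 and 10 h shaded. RPN1, RTN3 and LIPA rise in shControl to 10 h and end below their 0 h mean in shZNF598 by then, while ATF4 and CCND2 lie higher in shZNF598 at every time.

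The test of a late effect that differs from the effect at 0 h called 6 of 15093 genes (0.0398%), all more negative late. They were RPN1, AK3, LIPA, RTN3, ENSG00000278943 and LIN7C. RPN1 differed by −2.05 between the times (adjusted p = 3.06e-07) and AK3 by −2.09 (adjusted p = 2.64e-05). At an unadjusted p below 0.05, 859 of the 15093 genes differed, where a share of about 0.05 would pass with no difference at all. Compared with 2 and 4 h, the late effect differed for 40 genes (0.265%), 33 of them more negative late, and for 16 without shControl 6 h replicate 1 and 134 without shZNF598 10 h replicate 1. ZNF598 was among the 7 that were less negative or more positive late, by 1.09 (adjusted p = 0.00687). Between 10 and 6 h, 3 genes differed (0.0199%). RPN1 (−0.95) and LIPA (−0.97) were further reduced at 10 h, and UBL4A was less reduced (1.148), each with an adjusted p of 0.0311. This count was 0 without shControl 6 h or 10 h replicate 2, 1 without either shControl replicate 1 or shZNF598 6 h replicate 1, and 31 without shZNF598 10 h replicate 2. UBL4A, which helps insert tail-anchored proteins into membranes, had 5.80 and 7.37 CPM against 2.51 and 2.90 CPM at 6 h, and 5.81 and 5.50 CPM against 4.55 and 5.88 CPM at 10 h, where the hairpins overlapped.

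Most late calls pointed the same way earlier. Of the 708 higher genes, 659 had a positive change at 2 and 4 h (93.1%), and 310 were called higher there, where 8.13% of all genes were called higher. Of the 1043 lower genes, 950 had a negative change at 2 and 4 h, and 520 were called lower there, where 8.20% of all genes were called lower. The early and late libraries are different samples. The early changes of these genes were smaller, with medians of 0.21 and −0.22, and those at 0 h were 0.17 and −0.17, though genes chosen for passing a test late are larger there by that choice. At 0 h, with 2 libraries per hairpin, 47 of all 15093 genes were called in either direction. Of the late calls, 2 of the higher and 37 of the lower genes were called there in the same direction. Of the genes called late, 3 were called in the opposite direction early.

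How well a transcript was kept to 6 and 10 h went with the direction of its change. Retention was taken as the log2 level at 6 and 10 h minus that at 0 h, averaged over both hairpins, and genes were put into 4 equal classes. In the class lost fastest, 268 of 3774 genes were higher (7.10%) and 127 lower (3.37%). In the second class, 217 were higher and 203 lower, and in the third 133 and 293. In the best-retained class, 90 of 3773 were higher (2.39%) and 420 lower (11.1%). The count of 268 became 141 without shControl 10 h replicate 2, 157 without shControl 6 h replicate 2, 107 from the 6 h libraries alone and 10 from the 10 h libraries alone. The count of 420 became 211 and 254 without the same libraries, 77 from 6 h alone and 166 from 10 h alone. Median log2 changes were 0.091, 0.048, −0.023 and −0.041 from the fastest lost to the best retained. At 10 h they were 0.113, 0.073, −0.015 and −0.073. At 6 h they were 0.073, 0.018, −0.032 and −0.016, so the third and best-retained classes were not in this order there. For the best-retained class, the shZNF598 replicates at 6 h had medians of −0.086 and 0.059 relative to shControl. Abundance moved with the class, with median levels of 2.08, 4.05, 6.43 and 13.015 CPM, and its part in these counts was not tested. At 2 and 4 h, the medians of the same classes were 0.025, 0.010, −0.005 and 0.048, so the classes did not fall in this order there. RPN1 (retention 0.35), LIPA (0.88) and EIF4G2 (0.71) belonged to the better retained transcripts, while CDKN1B (−2.51) and the histone genes were among those lost fastest.

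MEIOC had the largest increase, to a 2.06-fold higher level. MEIOC is known from meiosis, and its level here was low, with 1.32 and 1.51 CPM in shControl against 3.04 and 2.58 CPM in shZNF598 at 6 h and 0.620 and 0.842 CPM against 1.58 and 1.56 CPM at 10 h (log2 change 1.04, SE 0.14, adjusted p = 8.68e-07). AMOTL2, an angiomotin that binds YAP, had 1.19 and 1.19 CPM against 2.17 and 2.38 CPM at 6 h, and 2.67 and 1.91 CPM against 3.498 and 4.999 CPM at 10 h (0.90, SE 0.13, adjusted p = 4.59e-06). CDKN1B, the cyclin-dependent kinase inhibitor p27, had 1.12 and 0.998 CPM against 1.78 and 1.90 CPM at 6 h, and 1.46 and 1.34 CPM against 2.41 and 2.92 CPM at 10 h (0.85, SE 0.13, adjusted p = 1.51e-05). These 3 genes did not overlap between the hairpins at either time, which the choice of genes named by size required.

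HSD17B10, a mitochondrial dehydrogenase that is also a subunit of mitochondrial RNase P, had 18.3 and 21.0 CPM in shControl against 27.6 and 38.7 CPM in shZNF598 at 6 h, and 36.3 and 32.4 CPM against 54.8 and 68.7 CPM at 10 h (0.80, SE 0.10, adjusted p = 1.47e-07). CCND2, the G1 cyclin D2, had 18.3 and 17.5 CPM against 31.3 and 26.96 CPM, and 16.7 and 15.99 CPM against 25.8 and 27.2 CPM (0.70, SE 0.09, adjusted p = 2.32e-07). Their increase was about as large at 10 h as at 6 h, with values of 0.84 and 0.76 for HSD17B10 and 0.69 and 0.70 for CCND2. At 0 h, the log2 ratio of mean CPM was already 0.557 for HSD17B10, 0.6 for CCND2, 0.636 for MEIOC, 0.655 for AMOTL2 and 0.631 for CDKN1B. FLVCR2 (0.89), GIN1 (0.88), LGI2 (0.83) and ERBB3 (0.83) were higher late, at levels at or below 1.22 CPM in every shControl library. Their ratios at 0 h were 0.253, −0.052, 0.609 and 0.241. None of the 708 higher genes was called for a late effect that differs from that at 0 h.

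ATF4, the transcription factor of the integrated stress response, had 34.4 and 36.6 CPM in shControl against 61.6 and 64.7 CPM in shZNF598 at 6 h, and 31.5 and 31.7 CPM against 47.3 and 48.7 CPM at 10 h. The change was 0.72 (SE 0.09, adjusted p = 8.93e-08). Its pseudogene ATF4P3 rose by 0.80, and 56.8% of the 25-base stretches of ATF4P3 occur in ATF4, so the pair may share reads. No other gene of the 20 tested on the integrated stress response list was called, and the median of that list was 0.02. ATF4 was also higher at 2 and 4 h, by 0.68.

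The replication-dependent histones had the highest share of called genes among the lists. They package newly made DNA, are transcribed in S phase, and their mRNAs end in a stem-loop in place of a poly(A) tail. Of 52 tested, 38 were higher, none was lower and 14 were not called, with a median of 0.49 beside 0.02 for all genes and a background of 4.69% called higher. H4C11 had 12.9 and 15.7 CPM in shControl against 32.8 and 29.3 CPM in shZNF598 at 6 h, and 6.58 and 6.93 CPM against 7.71 and 10.5 CPM at 10 h (0.80, adjusted p = 2.53e-06). H4C11 was among only 5 of the 52 whose hairpins were separated in the same direction at both times, beside 3322 of all 15093 genes. The summed level of the list, over the 50 rows with distinct counts, was 561 and 610 CPM in shControl against 964 and 996 CPM in shZNF598 at 6 h. At 10 h it was 490 and 442 CPM against 411 and 649 CPM, so the hairpins overlapped. The median change was 0.75 at 6 h and 0.14 at 10 h, and none of the 52 was called from the 10 h libraries alone. The count of higher histones was 23 without shControl 6 h replicate 1 and 22 with DESeq2. A difference between 10 and 6 h was called for none of them, with unadjusted p-values below 0.05 for 347 of all genes. In the 2 and 4 h libraries 11 were called higher and 3 lower, with a median of 0.17. The histone mRNAs were also lost fast, with a median retention of −1.95.

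The 3′ ends of the histone rows are shown because they separate this group from the other higher genes. A script searched the last 100 bases of each row, on the transcript strand, for GGNNNTTTNNNNNNCC, which covers the histone stem-loop. It was present in 40 of the 52 histone rows (76.9%), in 48 of 10173 other coding rows (0.472%) and in none of the 486 other coding rows called higher. AATAAA, the poly(A) signal, was present in the last 50 bases of 9 of the 52 histone rows and of 65.8% of the other coding rows. Capitals mark the bases of the stem.

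H4C11, 3′UTR, chr6:27824455-27824478, plus strand: aaaaGGCCCTtttcAGGGCCaccc
H4C12, 3′UTR, chr6:27831174-27831197, minus strand: aaaaGGCCCTttttAGGGCCccca
H2AC21, 3′UTR, chr1:149887469-149887492, minus strand: caaaGGCTCTtttaAGAGCCacca

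H4C11 and H4C12 share 92.6% of their 25-base stretches and H2AC18 and H2AC19 all of them, so single histone genes are uncertain and the 52 rows hold 50 distinct sets of counts. By stem-loop, 17 of the 24 rows with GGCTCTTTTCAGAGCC, 6 of 6 with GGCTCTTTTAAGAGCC and 5 of 6 with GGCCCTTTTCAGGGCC were higher.

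**Figure D4:**
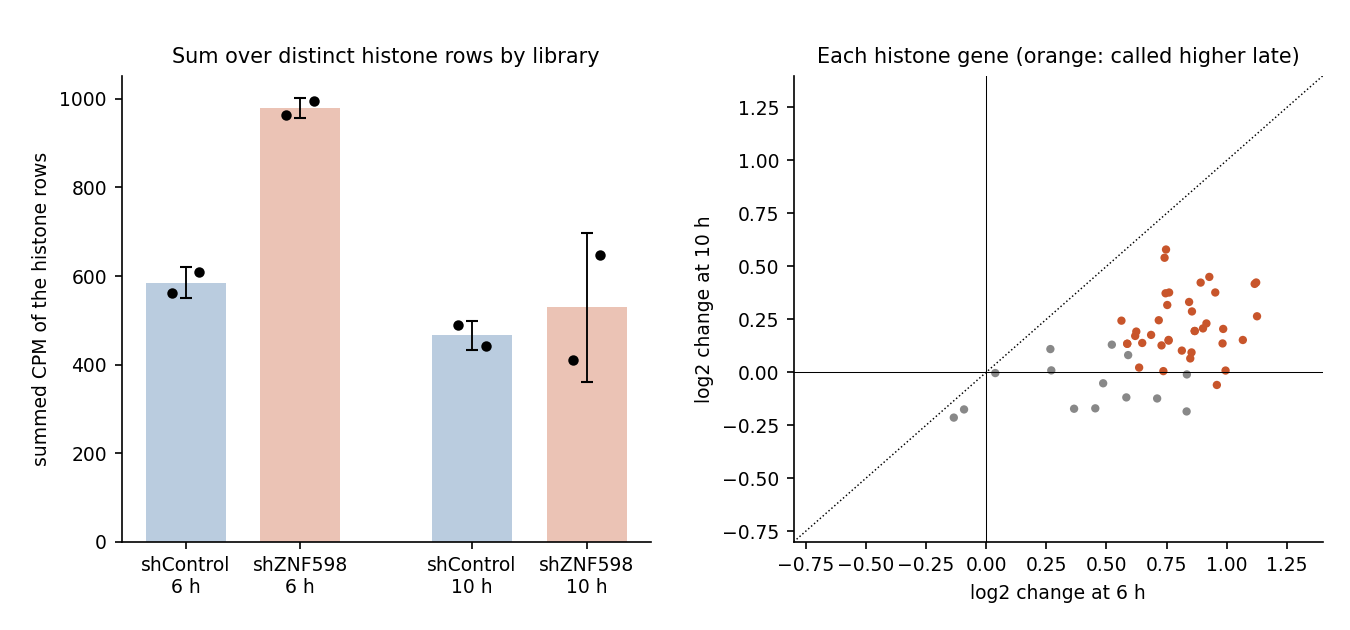
Left, summed CPM of the replication-dependent histone genes, over their 50 rows with distinct counts, in each late library (points), with bars at the mean and error bars of 1 SD (n = 2). Right, log2 change of each histone gene at 6 h (x axis) and 10 h (y axis), with the 38 called higher in orange. Most points lie below the dotted line of equal change, with a median of 0.75 at 6 h and 0.14 at 10 h.

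Of 39 rows annotated as miscellaneous noncoding RNA, 19 were higher and none lower, beside 4.69% of all genes called higher and 6.91% lower. Most of the 39 are copies of 7SK and of 7SL, the RNA of the signal recognition particle. Their median was 0.28 beside 0.02 for all genes. The other 20 were not called. RPPH1, the RNA of RNase P, was higher (0.30), while none of 6 snoRNA rows was called (median 0.02). RN7SK, annotated apart from these rows, had 3002 and 3407 CPM in shControl against 4120 and 4576 CPM in shZNF598 at 6 h, and 7263 and 7174 CPM against 7839 and 7765 CPM at 10 h (0.28, adjusted p = 0.0343). The median of the 39 rows was 0.34 at 0 h, before any chase, 0.006 at 2 and 4 h, 0.45 at 6 h and 0.10 at 10 h. The authors removed reads of noncoding RNA before counting, so these rows hold what that step left, and copies may share reads. The calls for RN7SK and RN7SL2 were lost in 6 and 10 of the 18 alternative fits.

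Several lists leaned to lower levels. Among the proteasome genes, which encode the protease that degrades ubiquitylated proteins, 8 of 34 were lower and none higher, with a median of −0.17 and a background of 6.91% called lower. PSMA6, a subunit of the core particle and a carrier of GTCGTTA, had 39.4 and 40.5 CPM against 26.0 and 28.1 CPM at 6 h, and 29.2 and 34.5 CPM against 15.0 and 14.4 CPM at 10 h (−0.83, adjusted p = 5.56e-08). PSMD10, an assembly chaperone, fell by 0.69 (adjusted p = 1.07e-06). The median of the list at 2 and 4 h was 0.02, with 1 of 34 called lower. The count late went down to 4 without shControl 10 h replicate 2.

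The next 4 lists are read against the same background of 6.91% of all genes called lower. In the best-retained class, 11.1% were called lower. Median retention was 1.29 for the oligosaccharyltransferase genes, 0.20 for the synthetases, 1.12 for the respiratory chain and −1.05 for p53 targets. Of 12 oligosaccharyltransferase genes, 4 were lower, with a list median of −0.19. They were RPN1, the catalytic subunit gene STT3B (−0.43), MAGT1 (−0.29) and the other catalytic subunit gene STT3A (−0.29). The list was chosen with earlier results of these data known and RPN1 had the largest change of all genes, so its call is no separate evidence about the list. The calls of MAGT1, STT3A and STT3B were lost in 7, 5 and 1 of the 18 alternative fits. Of 20 aminoacyl-tRNA synthetase genes, 5 were lower, among them CARS1 (−0.51) and EPRS1 (−0.32), with a median of −0.12. Of 99 nuclear-encoded respiratory chain genes, 12 were lower (12.1%) and 1 higher (median −0.06). Of 17 p53 targets, 5 were lower (29.4%, median −0.20). CDKN1A, the kinase inhibitor p21, had 4.68 and 4.48 CPM against 1.71 and 2.198 CPM at 6 h, and 5.99 and 4.77 CPM against 3.004 and 4.42 CPM at 10 h (−0.88, adjusted p = 5.92e-06). The p53 targets were lower at 2 and 4 h as well, with a median of −0.235, while the medians of the synthetases and the respiratory chain were −0.005 and 0.118 there.

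The lists nearest to the known role of ZNF598 held few calls, at shares to be set beside 4.69% of all genes called higher and 6.91% called lower. Of 28 genes of ribosome collision and rescue, MAP3K20, the kinase ZAKα (0.40), and GIGYF1 (0.30) were higher, and TCF25 (−0.28) and EIF2AK4, the kinase GCN2 (−0.28), were lower, with a median of −0.02. The calls of TCF25 and EIF2AK4 were each lost in 10 of the 18 alternative fits and that of GIGYF1 in 9, and EIF2AK4 holds GTCGTTA. Of 531 genes with a C2H2 zinc finger, 21 were higher (3.95%) and 10 lower (1.88%), and 369 had a positive change, with a median of 0.09. These genes were lost fast, with a median retention of −1.25, and genes of the fastest-lost class had a median of 0.09 as a whole. ZNF90 (0.88) and ZNF770 (0.61) had the largest increases of the C2H2 genes named here, and ZNF462 (−1.32) the largest decrease. Of 111 RING zinc finger genes, 4 were higher and 4 lower. From half-lives fitted to the chase, a measure other than the late levels here, the study reported that C2H2 zinc finger transcripts tended to live longer after knockdown. The genes it followed up were picked for zinc finger regions rich in collided ribosomes. After a transcription block, the study found their mRNAs to decay alike with and without the knockdown. None of them was called late here. ZNF768 had a log2 change of 0.16 (adjusted p = 0.361), ZBTB7A 0.37 (adjusted p = 0.157) and ZNF100 −0.27 (adjusted p = 0.292).

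Of 43 RNA decay factors, the decapping cofactor gene DCP1A (0.50) and SMG9 (0.41), of nonsense-mediated decay, were higher, and BTG2 (−0.52), the 5′ exonuclease gene XRN1 (−0.35) and SKIC3 (−0.27), of the exosome cofactor, were lower. These shares of 4.65% and 6.98% are near those of all genes, 4.69% and 6.91%. Cytosolic ribosomal protein genes had 5 of 82 higher and none lower (6.10% and median 0.09, beside 4.69% of all genes called higher). At 2 and 4 h, 42 of the 82 were called higher, beside 8.13% of all genes, with a median of 0.21. Tubulin and TRiC genes had 3 of 19 higher, the tubulin genes TUBB4B (0.53), TUBB (0.40) and TUBB3 (0.35), and CCT5 lower (−0.26). Among interferon response genes, 12 were tested and none was called.

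**Figure D5:**
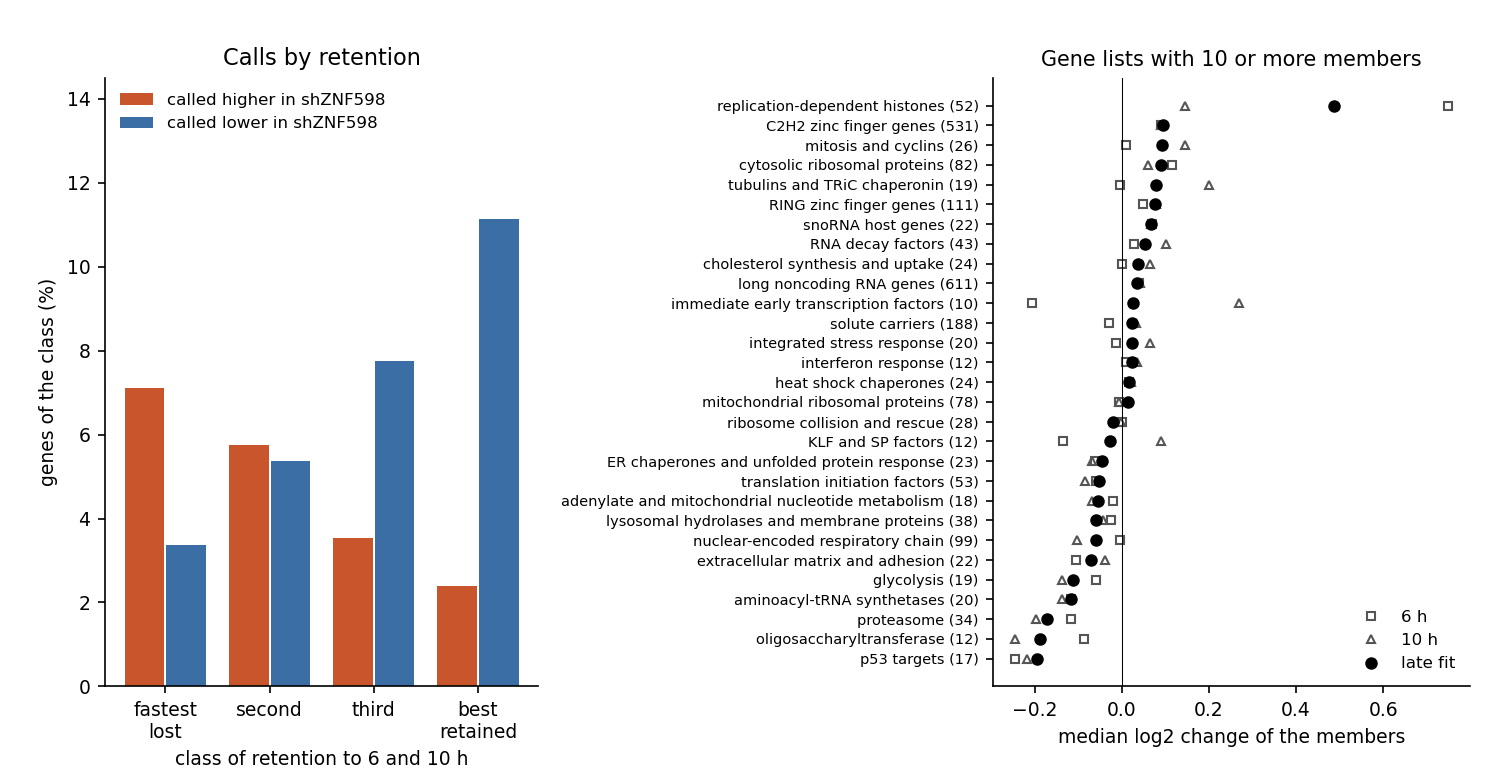
Left, share of genes called higher (orange) and lower (blue) in each of 4 classes of retention to 6 and 10 h (y axis, percent of the class), from 7.10% and 3.37% in the fastest-lost class to 2.39% and 11.1% in the best-retained class. Right, median log2 change of each gene list with at least 10 members tested (number in brackets) in the late fit (filled circles), at 6 h (squares) and at 10 h (triangles), where the histones stand furthest to the right.

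Coding rows called higher and lower differed in composition. The median GC content was 50.9% in the 520 higher rows, 44.2% in the 809 lower rows and 47.3% in all coding rows. The median length was 3881, 3412 and 3648 nt. The lower rows were more abundant, with a median of 10.4 CPM against 5.71 CPM in the higher rows. No test was made of these differences.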

How the data were processed

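BRIC-Seq libraries of HEK293T cells were analysed from the raw read counts per transcript that the authors deposited. Per the labels and methods, the authors trimmed reads with fastp, removed reads of noncoding RNA and aligned the rest with STAR 2.7.0a to hg38 with GENCODE 32. Alignment kept reads that mapped to 1 locus with at most 1 mismatch. The 52 histone rows still held only 50 distinct sets of counts, and the reason was not tested. Reads were counted with featureCounts. Its strand and overlap options are not given in the sources used here, so overlapping and antisense genes cannot be told apart. Spike-in counts were not used, so levels are relative. Identifiers were named with GENCODE 44 on GRCh38 (92.2% with version, 98.4% with or without), and unmatched ones, 2.11% of late counts, stayed as genes of their own. The row with the highest mean count over the 0 to 10 h libraries stood for each gene. Counts were fitted with edgeR 4.0.16 (TMM, quasi-likelihood test, chase time as covariate, Benjamini-Hochberg threshold 0.05) in R 4.3.3, tested first on simulated data. SE is the log2 change over the square root of F. Differences between times used contrasts of group means. The members and lists were chosen with earlier results of these data known. Genes were named by size (10 per direction), abundance (5) and list membership (up to 4). Those named by size or abundance were taken from called genes whose hairpins did not overlap at 6 h or at 10 h. Exceptions are heptamer carriers, 7SK and other single genes named after their values were seen. Lists are described by counts and medians. Alternatives were other scaling and filters, DESeq2 1.42.0, a replicate block, each time alone, all transcript rows and each library left out.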

Additional observations from a re-analysis of the deposited data

Results flagged for a closer look

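These values are differences between the effects of the hairpins at different chase times, each from the edgeR test of that difference with its adjusted p. Between 10 and 6 h they were −0.95 for RPN1, −0.97 for LIPA and 1.148 for UBL4A, each with an adjusted p of 0.0311. Between late and 0 h they were −2.05 for RPN1 (adjusted p = 3.06e-07), −2.09 for AK3 (2.64e-05), −1.78 for LIPA (6.56e-06), −1.59 for RTN3 (8.93e-06), −1.62 for ENSG00000278943 (0.000217) and −1.12 for LIN7C (0.00312). Between late and early, the 3 largest in each direction were −1.52 for RTN3P1 (adjusted p = 0.00358), −1.38 for RPN1 (4.29e-09), −1.26 for RTN3 (1.58e-07), 1.09 for ZNF598 and 1.08 for ENST00000563630.6 (both 0.00687), and 0.92 for ENSG00000290391 (0.0169). Groups of 2 libraries were too small to look for single libraries that stood apart.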

How the results depend on the processing

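The 1751 genes called late became 553 from the 6 h libraries alone, 422 from the 10 h libraries alone and 8182 of 79513 with all transcript rows. Leaving out a library gave 980 to 1748. The lowest values were 980 without shControl 10 h replicate 2 and 1060 without shControl 6 h replicate 2. Whether equal replicate numbers mark paired samples is not settled (r of deviations 0.27 at 6 h and −0.216 at 10 h), and the main fit did not treat them as pairs. A replicate block gave 2167 as an additive term, 1939 by chase time and replicate, and 3027 with the numbers crossed at 10 h, a setting chosen after seeing the data. The other settings gave counts within 1.5 times the main one. The ZNF598 change ran from −2.63 to −2.40 over left-out libraries.
The 6 genes whose late effect differed from that at 0 h became 24 with DESeq2, 29 with 1 mean per group over 20 libraries, 35 with an additive replicate block and 6 to 7 with a library left out. The 40 that differed from early became 120 with DESeq2 and 16 to 134 with a library left out, and the 3 that differed between 10 and 6 h became 0 to 31. Of the 145 named genes called late, 39 kept their call in all settings that tested them (18, or 17 for the 41 named genes under 5 CPM), 106 lost it in at least 1, and 0 reversed. The causes were not tested where they do not follow from fewer libraries or more rows.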
